A study of Homo sapiens with 22 samples.

Results

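The genes described here write, remove and read the phosphorylation of the tail of histone H2A.X. They were chosen by symbol, which gave 10 of the 59087 gene names in each count table: the kinases ATM, ATR and PRKDC, the readers MDC1 and TP53BP1, the ubiquitin ligases RNF8 and RNF168, the tyrosine phosphatase EYA3, the adaptor APBB1 and the kinase MAPK8. Their RNA was followed in HUDEP-2, an immortalized line of human erythroid progenitors, which is expanded at D0 and sampled again at D6 of culture in differentiation medium. At each day, the H2A.X experiment held 2 WT and 3 H2A.X KO replicates. Its counterpart for BAZ1B held 3 of each genotype at each day, which makes 22 libraries. Per the study's methods, the KO replicates are subclones of the line made with pairs of CRISPR/Cas9 guides, placed around the coding region of H2A.X or before the start codon and after the first exon of BAZ1B. Each KO replicate is thus a colony grown from about 1 sorted cell. All cells come from 1 line and were kept in doxycycline, SCF and erythropoietin at both stages, with dexamethasone before maturation and transferrin, insulin and plasma during it.

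After a DNA double-strand break, the kinases ATM, ATR and DNA-PKcs, the product of PRKDC, phosphorylate a serine near the end of H2A.X, and the marked histone is called γ-H2A.X. MDC1 binds that serine and brings the ubiquitin ligase RNF8, whose work RNF168 extends along the chromatin, and TP53BP1 is then held at the break. A tyrosine at the very end of the tail carries another mark, which BAZ1B sets and EYA phosphatases such as EYA3 remove. With the tyrosine phosphorylated, the adaptor APBB1 and JNK1, the product of MAPK8, are recruited in place of MDC1, and JNK1 can itself phosphorylate the serine during apoptosis. Erythroblasts condense their nucleus before expelling it, which is the setting in which the study looked at these marks.

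The end of the H2A.X coding sequence is shown because it carries the marks that these genes set, remove or respond to. It lies in the single exon of H2AX, which the count tables list as H2AFX, on the minus strand at chr11:119094963-119094992 (hg38), and is written 5′ to 3′ with the codons of the serine (S139) and the tyrosine (Y142) in capitals.
H2AX tail: aaggccacccaggccTCCcaggagTACtaa
The last 3 bases are the stop codon, so that the tyrosine is the last residue.

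Total counts per library ran from about 11910100 to 21013000 in the H2A.X experiment and from about 33199400 to 41273200 in the BAZ1B experiment. Values are given as CPM, the counts per 1000000 counts of library size after normalization by the TMM method of edgeR, and each experiment was normalized on its own. H2AFX stood at 89.7 and 112 CPM in WT and at 19.0, 44.8 and 43.3 CPM in KO of the H2A.X experiment at D0. At D6 it stood at 99.5 and 136 CPM in WT and at 17.5, 59.8 and 45.5 CPM in KO, so that WT and KO did not overlap at either day. BAZ1B stood at 258 to 264 CPM in WT and at 174 to 222 CPM in BAZ1B KO at D0, and at 242 to 251 against 181 to 196 CPM at D6. Reads from outside the deleted part are still counted on each gene, and neither value measures the loss of the protein. Erythroid markers were high in all groups, with a sum over 10 genes of 6405 to 70136 CPM, while the defining markers of T cells, B cells and monocytes summed to at most 0.910 CPM for each type.

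The WT libraries of the H2A.X experiment stood apart from all the others in how reads fell on long and short genes. The median log2 CPM of genes with a transcript over 5000 bp exceeded that of genes with one under 2000 bp by 0.02 to 0.83 in these WT libraries. In the H2A.X KO libraries it did so by 1.39 to 1.81, and in the BAZ1B experiment, WT and KO alike, by 1.78 to 2.0. Of the column names of the H2A.X experiment, 5 of 6 in KO and 0 of 4 in WT carry the word Redo, and the study's text used here does not say what it marks. Genotype and whatever it stands for cannot be told apart, other than by the 1 KO library without it. In that library, replicate 3 of KO at D6, the difference between long and short genes was 1.39, the lowest of the KO libraries. The part of either was not tested. The erythroid marker sum at D0 was 23382 to 31930 CPM in these WT libraries and 12141 to 16104 CPM in H2A.X KO. At D6 the ranges of the sum overlapped, at 36554 to 60963 CPM in WT and 42491 to 70136 CPM in KO. Single markers still differed at D6, in both directions. GATA1 had mean normalized counts of 7598 ± 893 in WT and 4923 ± 435 in KO (SD). TFRC had 85093 ± 246 in WT and 217251 ± 44781 in KO. The sum of 8 mast cell and eosinophil markers was 104 to 140 CPM in WT and 209 to 419 CPM in KO at D0, with CPA3 at 0 in WT, and 145 to 232 CPM in WT and 3.08 to 13.5 CPM in KO at D6, with EPX at 0 in both. The sum of 4 megakaryocyte markers, of which ITGA2B alone passed the filter, was 8.72 to 9.67 CPM in WT and 32.7 to 75.7 CPM in KO at D0, and 3.57 to 7.93 against 1.93 to 4.78 CPM at D6. The part of these shifts in the members' values was not tested. All members except APBB1 have a longest transcript of 5347 to 13459 bp. The count of members called in each H2A.X comparison below is therefore also given with every library corrected for transcript length and GC content.

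Of the 10 genes, 9 passed the filter on low counts in both experiments. APBB1, the adaptor for the tyrosine mark, did not: its raw counts were 1 to 6 per library in the H2A.X experiment and 0 to 8 in the BAZ1B experiment, or at most 0.289 CPM, and no difference could be tested at this depth. The levels of the other members were compared per length, as CPM per kb of merged exons. In WT at D0 of the BAZ1B experiment, PRKDC had the highest level, 64.0 ± 2.6 CPM per kb (SD, n = 3). MDC1 followed at 25.2 ± 0.56 and EYA3 at 15.5 ± 0.25 CPM per kb. RNF168 stood at 11.4 ± 0.35, TP53BP1 at 7.45 ± 0.032, ATM at 6.98 ± 0.41 and RNF8 at 6.35 ± 0.16 CPM per kb. ATR and MAPK8 were the lowest of the members that passed, at 3.18 ± 0.036 and 2.24 ± 0.14 CPM per kb. In this group the 3 libraries of no member overlapped with those of its neighbour in the order.

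**Figure D1:**
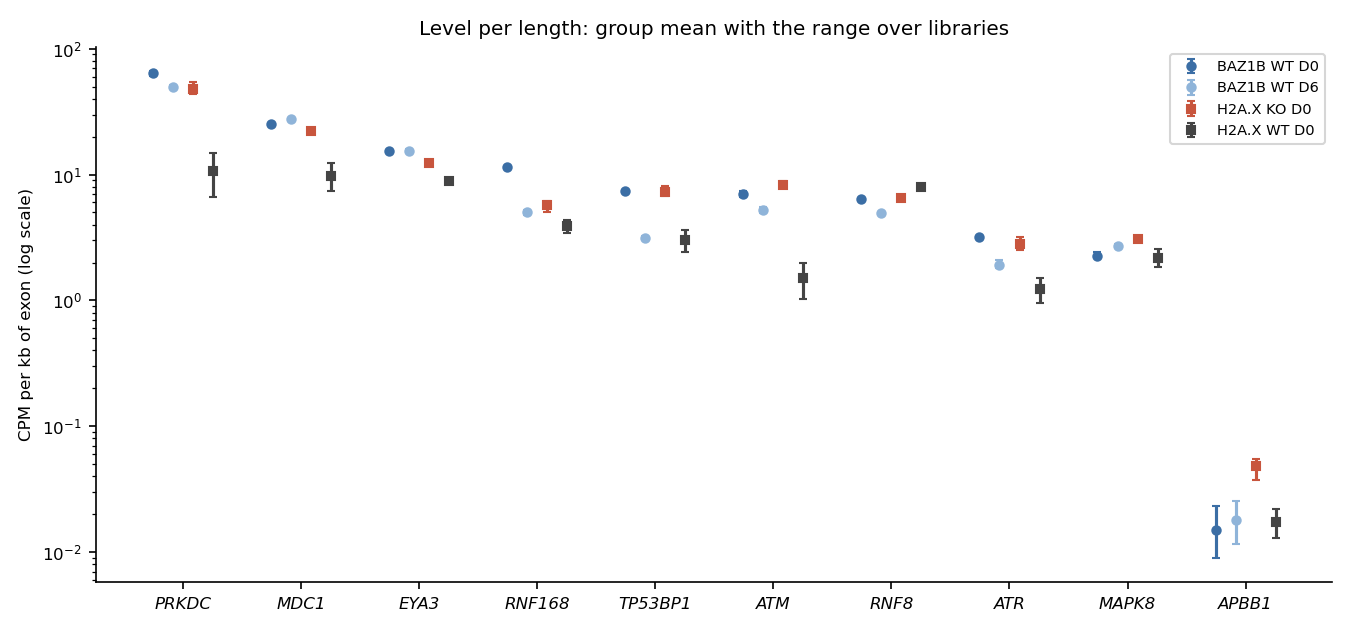
Level of each member in CPM per kb of merged exons on a log axis, as the mean with the range over the libraries, for WT at D0 and D6 of the BAZ1B experiment and for KO and WT at D0 of the H2A.X experiment. PRKDC is the highest and APBB1 the lowest in all 4 groups, and in the H2A.X WT libraries the ranges of PRKDC and MDC1 overlap.

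The order was not the same in every group. At D6 in WT of the BAZ1B experiment, ATM, RNF168 and RNF8 stood at 5.20 ± 0.31, 5.08 ± 0.29 and 4.97 ± 0.10 CPM per kb, and their libraries overlapped. In WT at D0 of the H2A.X experiment, PRKDC stood at 6.62 and 14.9 CPM per kb and MDC1 at 7.40 and 12.2, which overlapped as well. The order also depended on the length used, since the merged exons of ATM (39184 bp) and ATR (27234 bp) are far longer than their longest transcripts (13130 and 8158 bp). Per kb of the longest transcript, ATM stood at 20.8 CPM in WT at D0 of the BAZ1B experiment, between MDC1 at 27.5 and EYA3 at 16.6 CPM, and ATR stood at 10.6 CPM.

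**Figure D2:**
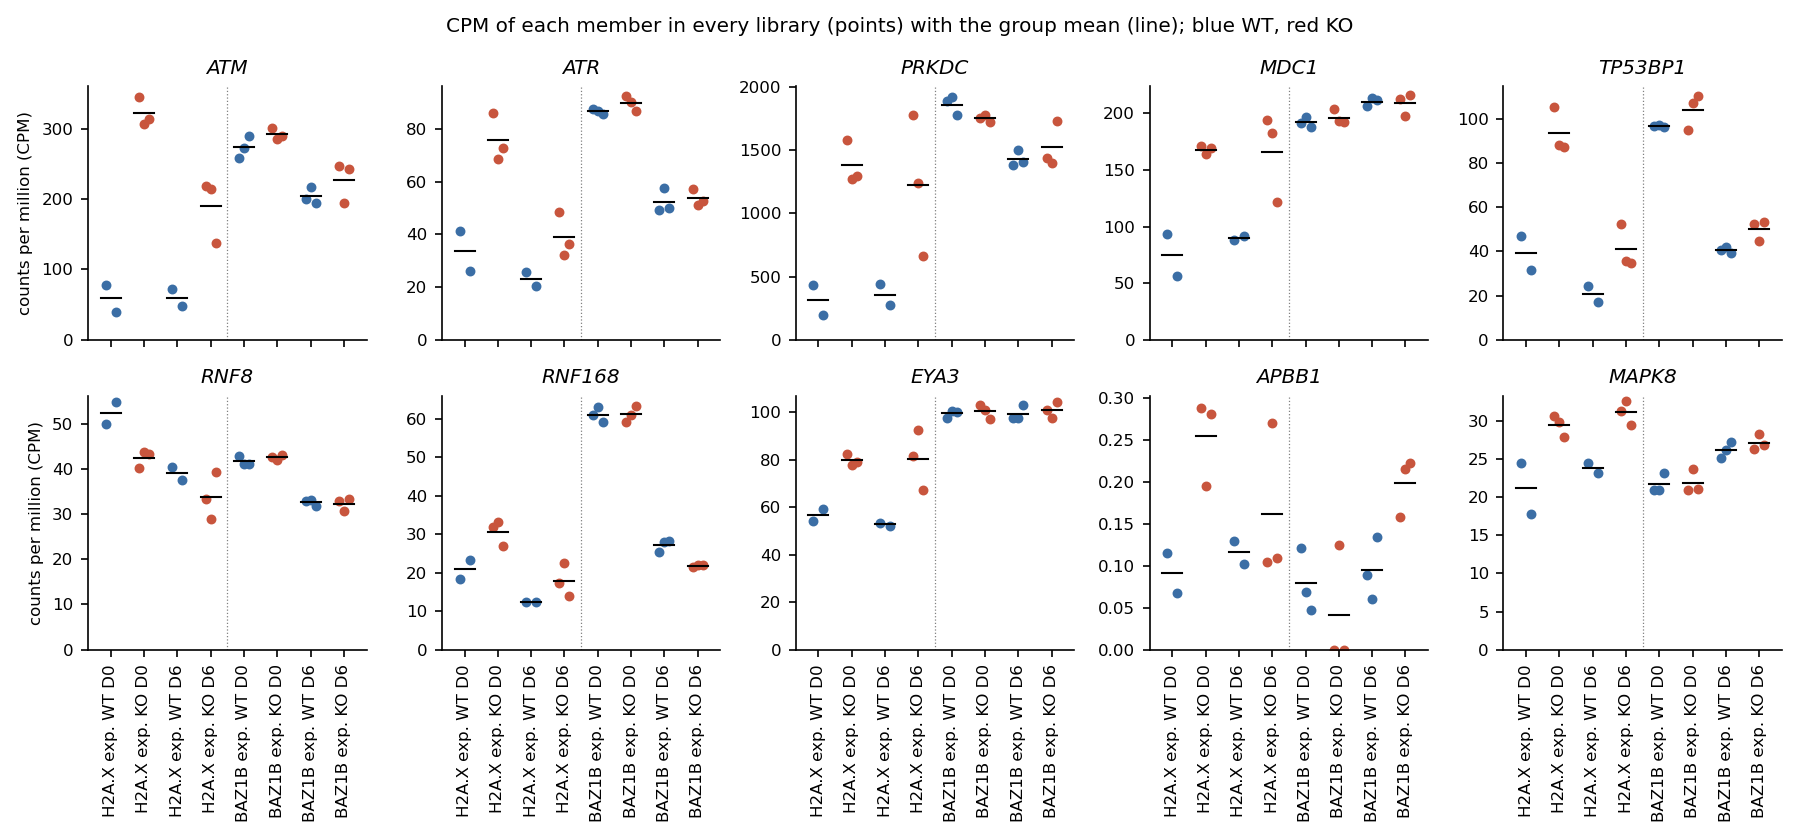
CPM of each of the 10 members in all 22 libraries (points) with the group mean (line), WT in blue and KO in red, each panel on its own linear axis from 0 with the H2A.X experiment to the left of the dotted line. ATM, ATR, PRKDC, MDC1 and TP53BP1 are low in the H2A.X WT libraries, and TP53BP1 and RNF168 are lower at D6 than at D0 in the BAZ1B experiment.

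The first comparison asks whether cells without H2A.X differ from WT in the RNA of the genes that act on it. At D0, 7 of the 9 members tested were higher in H2A.X KO than in WT and 0 were lower at an adjusted p below 0.05. Of all 13236 genes tested, 18.4% were called higher, and of the 3693 with a transcript over 5000 bp, 41.6% were. The median log2 fold change of the members was 1.17, beside 0.01 over all genes and 0.58 over the genes with a transcript over 5000 bp. In bulk RNA a smaller share of cells with a transcript and less of it per cell cannot be told apart. WT and KO did not overlap for 9 of 9 members, and 70.3% of all genes had no overlap. The study's methods define a differentially expressed gene by a p below 0.001, read here as unadjusted, and an absolute log2 fold change above 1.5. By that rule ATM and PRKDC passed with edgeR, beside 3.88% of all genes, and with DESeq2, the study's tool, beside 5.76%.

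Among the kinases of the serine mark, ATM and PRKDC had the largest differences of all members. ATM, the kinase that leads the response to double-strand breaks, stood at 78.3 and 40.2 CPM in WT and at 345, 307 and 313 CPM in KO. All KO libraries lay above both WT libraries, which gave a log2 fold change of 2.44 ± 0.33 (SE; 5.43-fold; edgeR adjusted p = 0.0031). PRKDC stood at 433 and 192 CPM in WT and at 1583, 1275 and 1296 CPM in KO, with a log2 fold change of 2.15 ± 0.45 (edgeR adjusted p = 0.0092). ATR, which answers to stalled replication, stood at 41.3 and 25.9 CPM in WT and at 86.1, 68.5 and 72.8 CPM in KO, with a log2 fold change of 1.17 ± 0.25 (edgeR adjusted p = 0.0092). For each of the kinases the lower WT library was replicate 2. With the length and GC correction, the log2 fold changes were 1.52 for ATM (edgeR adjusted p = 0.0028), 1.27 for PRKDC (0.017) and 0.50 for ATR (0.077), so that the call was lost for ATR.

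Both readers of the serine mark were higher in KO as well. MDC1 stood at 93.3 and 56.4 CPM in WT and at 171, 164 and 169 CPM in KO, with a log2 fold change of 1.17 ± 0.24 (edgeR adjusted p = 0.0091). TP53BP1 stood at 46.7 and 31.4 CPM in WT and at 105, 88.1 and 87.2 CPM in KO, with a log2 fold change of 1.26 ± 0.26 (edgeR adjusted p = 0.0087). The corrected log2 fold changes were 0.74 for MDC1 (edgeR adjusted p = 0.019) and 0.49 for TP53BP1 (0.057). Of the exon bases of TP53BP1, 28.8% lie opposite exons of TUBGCP4, and since the labels name a kit that does not keep the strand and the methods one that does, reads of these genes may not have been told apart. TUBGCP4 had a log2 fold change of 0.62 ± 0.14 (edgeR adjusted p = 0.011) in the same comparison.

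The ligases differed from the kinases and readers in their values. RNF8 stood at 49.9 and 54.9 CPM in WT and at 40.2, 43.8 and 43.3 CPM in KO, with a log2 fold change of -0.30 ± 0.16 (edgeR adjusted p = 0.15). All KO libraries lay below both WT libraries, and with the length and GC correction RNF8 was called lower, with a log2 fold change of -0.69 (edgeR adjusted p = 0.020). RNF168 stood at 18.3 and 23.4 CPM in WT and at 31.8, 33.0 and 26.9 CPM in KO, with a log2 fold change of 0.55 ± 0.22 that missed the threshold (edgeR adjusted p = 0.074). Corrected, its log2 fold change was 0.22 (edgeR adjusted p = 0.49).

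On the side of the tyrosine mark, EYA3 stood at 54.2 and 59.0 CPM in WT and at 82.3, 77.8 and 78.9 CPM in KO, with a log2 fold change of 0.49 ± 0.16 (edgeR adjusted p = 0.034). MAPK8 stood at 24.6 and 17.8 CPM in WT and at 30.7, 29.9 and 28.0 CPM in KO, with a log2 fold change of 0.48 ± 0.17 (edgeR adjusted p = 0.048). With the correction neither was called, at log2 fold changes of 0.09 for EYA3 (edgeR adjusted p = 0.66) and 0.03 for MAPK8 (0.88). Corrected values called 3 of 9 members higher and 1 lower, beside 12.2% and 11.5% of all genes. Without WT D0 replicate 2, which leaves 1 WT library at D0, most calls of the members were lost. The log2 fold change of ATM was then 2.04. Calls over all genes also became far fewer in that fit, so the losses are not particular to the members. EYA3 lost its call in 7 and MAPK8 in 8 of the 10 fits that left out 1 library of either day. The other calls, except that of ATM, were lost only in the fit without WT D0 replicate 2.

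**Figure D3:**
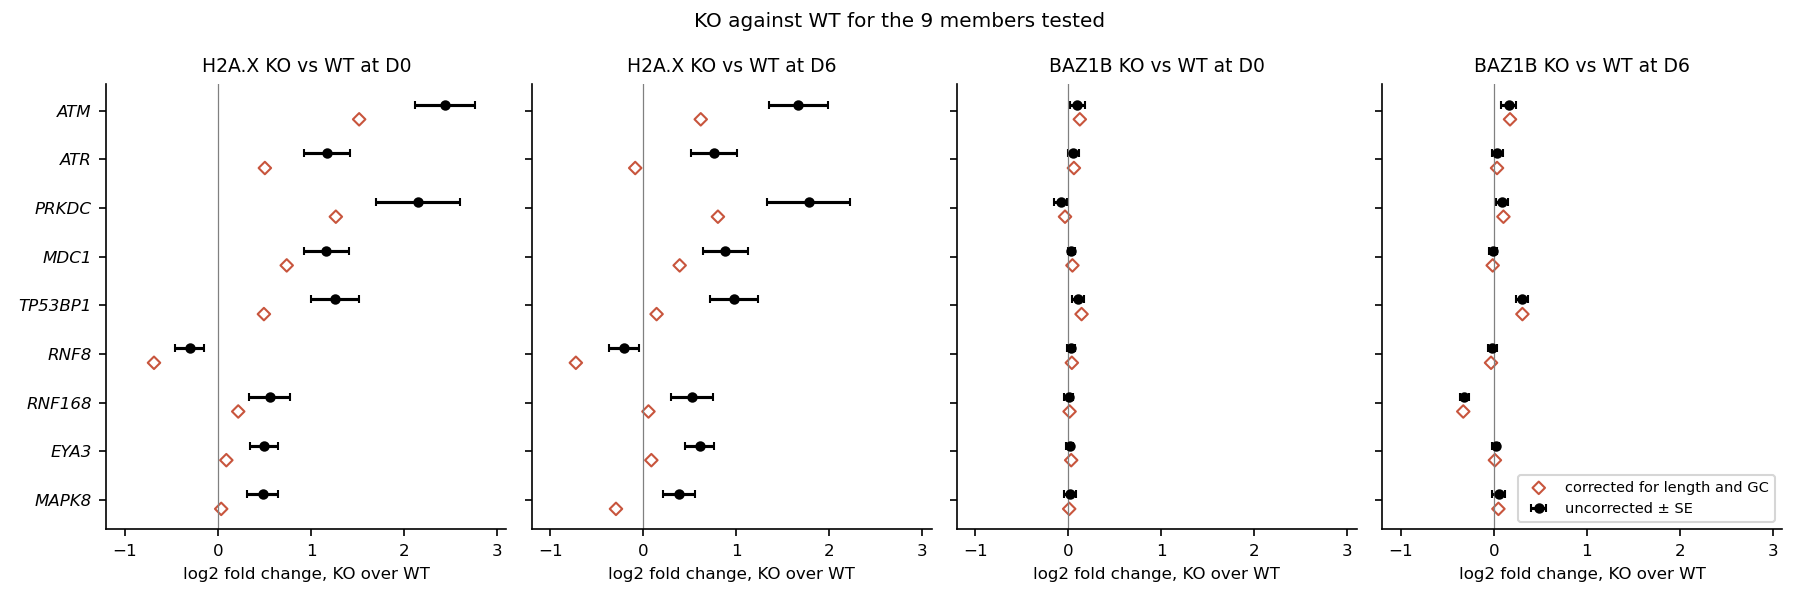
Log2 fold change of KO over WT for the 9 members tested, in both experiments and at both days, as fitted (black, ± SE) and after the length and GC correction (open red diamonds). In the H2A.X experiment the correction moves every member towards lower values and puts ATR and MAPK8 below 0 at D6, while in the BAZ1B experiment both values lie close together.

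At D6, 6 of 9 members were higher in H2A.X KO and 0 lower, beside 22.2% of all genes called higher and 48.9% of those with a transcript over 5000 bp. All 6 were among the 7 called at D0, and MAPK8, at 24.5 and 23.2 CPM in WT and 31.4, 32.6 and 29.6 CPM in KO, was not called (log2 fold change 0.38 ± 0.17, edgeR adjusted p = 0.086). ATM stood at 72.3 and 47.4 CPM in WT and at 219, 215 and 138 CPM in KO, with a log2 fold change of 1.67 ± 0.32 (edgeR adjusted p = 0.0046). PRKDC stood at 441 and 273 CPM in WT and at 1779, 1237 and 659 CPM in KO, with a log2 fold change of 1.78 ± 0.45 (edgeR adjusted p = 0.011). The lowest KO value of both genes was that of KO replicate 3, whose column at D6 is the 1 KO column without the word Redo. Leaving that library out gave log2 fold changes of 1.89 for ATM and 2.11 for PRKDC.

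The other calls at D6 were smaller. TP53BP1 stood at 24.4 and 16.9 CPM in WT and at 52.3, 35.5 and 34.9 CPM in KO (log2 fold change 0.98 ± 0.26, edgeR adjusted p = 0.013). MDC1 stood at 88.4 and 91.7 CPM in WT and at 194, 183 and 122 CPM in KO (log2 fold change 0.88 ± 0.24, edgeR adjusted p = 0.016). ATR stood at 25.7 and 20.3 CPM in WT and at 48.4, 32.3 and 36.4 CPM in KO (log2 fold change 0.76 ± 0.25, edgeR adjusted p = 0.031). In all of these no KO library fell to the level of a WT library. EYA3 stood at 53.4 and 52.0 CPM in WT and at 81.5, 92.3 and 67.1 CPM in KO (log2 fold change 0.61 ± 0.16, edgeR adjusted p = 0.012). RNF168, at 12.4 CPM in both WT libraries and 17.2, 22.5 and 13.9 CPM in KO, was not called (log2 fold change 0.53 ± 0.23, edgeR adjusted p = 0.082). RNF8 overlapped between WT, at 40.5 and 37.5 CPM, and KO, at 33.2, 29.0 and 39.2 CPM (log2 fold change -0.21 ± 0.16, edgeR adjusted p = 0.31).

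With the length and GC correction 1 of 9 members was higher and 1 lower at D6, beside 12.2% and 13.8% of all genes. ATM remained higher in KO, with a corrected log2 fold change of 0.62 (edgeR adjusted p = 0.038), and RNF8 was called lower, at -0.72 (edgeR adjusted p = 0.016). PRKDC had 0.80 (edgeR adjusted p = 0.067), MDC1 0.39 (0.12) and TP53BP1 0.14 (0.55), while ATR turned to -0.09 (0.76). WT and KO had no overlap for 8 of 9 members, beside 63.4% of all genes. By the study's rule ATM passed with edgeR, beside 5.53% of all genes, and ATM and PRKDC with DESeq2, beside 7.73%. Without WT D6 replicate 2, which leaves 1 WT library at D6, the calls of the members were lost. The log2 fold changes were then 1.43 for ATM, 1.51 for PRKDC and 0.94 for MDC1. Those of TP53BP1, ATR and EYA3 were 0.77, 0.63 and 0.62. Calls over all genes also became far fewer in that fit. The call was also lost for MDC1 without WT D6 replicate 1, and for ATR without that library or KO D6 replicate 1. On all libraries DESeq2 called 6 members higher, beside 25.3% of all genes. The part that the read distribution of the WT libraries has in these differences was not tested beyond the correction.

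**Figure D4:**
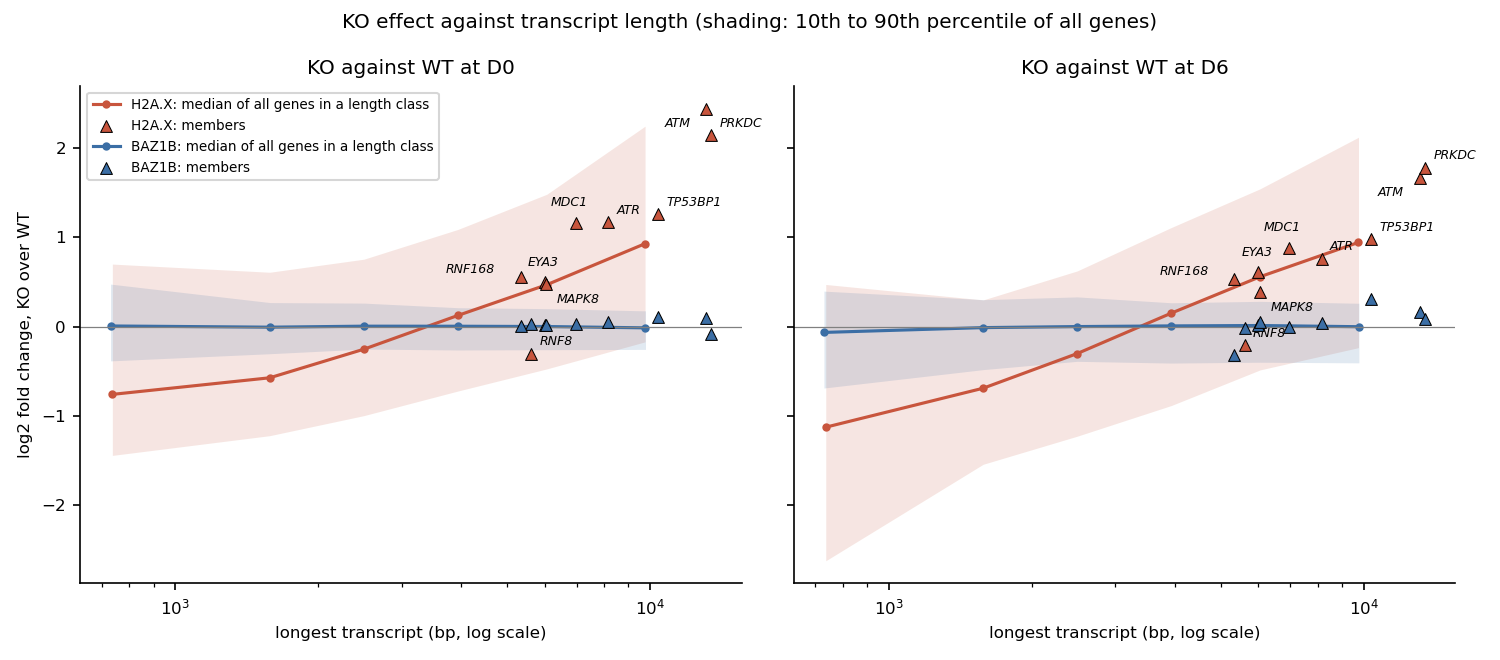
Log2 fold change of KO over WT against the longest transcript of a gene (log axis) at D0 and D6, as the median over all genes of a length class (line), their 10th to 90th percentile (shading) and the 9 members tested (triangles, named for the H2A.X experiment in red). In the H2A.X experiment the median rises from -0.76 in genes up to 1000 bp to 0.93 in those over 8000 bp at D0, and from -1.13 to 0.94 at D6, while the BAZ1B medians stay between -0.07 and 0.01. The shading ends at the median length of the longest class, and ATM, PRKDC and TP53BP1 lie to its right.

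Set beside the WT libraries of the BAZ1B experiment, the H2A.X KO mean was nearer than the H2A.X WT mean for all members that passed the filter other than MAPK8. The tables were normalized apart and differ in depth, so these ratios of mean CPM are a description without a test. They are not corrected for length, and all 9 members have a transcript over 5000 bp. The H2A.X WT libraries stood apart in how reads fell on such genes, and the part of this in the ratios was not tested. ATM in H2A.X WT at D0 reached 0.217 times the mean of WT at D0 of the BAZ1B experiment (273.6 ± 16 CPM, SD, n = 3), and in H2A.X KO 1.18 times. For PRKDC the ratios were 0.168 in WT and 0.744 in KO, for MDC1 0.390 and 0.875, and for TP53BP1 0.404 and 0.967. RNF8 went the other way, with 1.26 in WT and 1.02 in KO. RNF168 stayed low in both, with 0.341 in WT and 0.501 in KO. For MAPK8 the WT mean was the nearer one, with 0.975 in WT and 1.36 in KO at D0 and 0.911 and 1.19 at D6. Over the 9 members the median ratio at D0 was 0.390 for H2A.X WT and 0.875 for H2A.X KO, and at D6 0.456 and 0.855.

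The BAZ1B experiment asks the same of cells with a deletion in BAZ1B, the kinase of the tyrosine mark. At D0, 0 of 9 members were called by edgeR, beside 3.88% of all 13879 genes. None had an unadjusted p below 0.05, beside 2131 of all 13879 genes, and DESeq2 called 0 as well, beside 5.3%. The log2 fold changes ran from -0.09 for PRKDC to 0.11 for TP53BP1, and WT and KO overlapped for all 9, while 22.5% of all genes had no overlap. The 95% interval of the log2 fold change was -0.07 to 0.10 for EYA3, the phosphatase that opposes BAZ1B. It was -0.08 to 0.27 for ATM, -0.23 to 0.06 for PRKDC and -0.13 to 0.16 for MAPK8, and all 9 intervals lay between -0.23 and 0.27.

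At D6, 2 of 9 members were called between BAZ1B KO and WT, in opposite directions, beside 12.8% of all genes. TP53BP1 stood at 40.5, 42.1 and 39.3 CPM in WT and at 52.3, 44.9 and 53.3 CPM in KO. Every KO library lay above every WT library, with a log2 fold change of 0.30 ± 0.07 (1.23-fold; edgeR adjusted p = 0.011). TUBGCP4, on the strand opposite, had a log2 fold change of 0.08 ± 0.04 (edgeR adjusted p = 0.27). Without WT D6 replicate 3 the call of TP53BP1 was lost, at a log2 fold change of 0.27 (edgeR adjusted p = 0.051). RNF168 stood at 25.3, 28.0 and 28.1 CPM in WT and at 21.5, 22.02 and 22.03 CPM in KO. Every KO library lay below every WT library, with a log2 fold change of -0.31 ± 0.05 (0.804-fold; edgeR adjusted p = 0.0018), and the call held without any 1 library. The groups of 2 of 9 members did not overlap, beside 30.8% of all genes, and 0 passed the study's rule, beside 1.27% of all genes with edgeR and 1.41% with DESeq2. The megakaryocyte marker sum was 8.32 to 10.4 CPM in WT and 1.42 to 4.77 CPM in KO at D6, and 72.3 to 75.5 against 34.4 to 67.6 CPM at D0. The erythroid sum was 36606 to 41891 CPM in WT and 31125 to 36644 CPM in KO at D6, and 6405 to 7134 against 7611 to 8082 CPM at D0. The part of these markers in the members' values was not tested.

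The other 7 members stayed within log2 fold changes of -0.01 and 0.16. ATM was the highest of them, at 200, 217 and 194 CPM in WT and 246, 194 and 243 CPM in KO (log2 fold change 0.16 ± 0.08, edgeR adjusted p = 0.23). EYA3 had 97.7, 97.4 and 103 CPM in WT and 101, 97.4 and 104 CPM in KO, with a 95% interval of its log2 fold change from -0.06 to 0.11. MAPK8 had 25.1, 26.2 and 27.3 CPM in WT and 26.4, 28.3 and 26.9 CPM in KO, with an interval from -0.09 to 0.20.

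In WT of the BAZ1B experiment most members differed between D0 and D6, as did 9565 of all 13879 genes. From D0 to D6 in WT, 6 of 9 members fell and 2 rose, beside 35.4% and 33.5% of all genes. The ligase RNF168 and the reader TP53BP1, which act in sequence at the break, fell most. TP53BP1 went from 96.7, 97.1 and 96.2 CPM at D0 to 40.5, 42.1 and 39.3 CPM at D6, with a log2 fold change of -1.25 ± 0.07 (0.421-fold; edgeR adjusted p = 3.8e-09). RNF168 went from 61.1, 62.9 and 59.2 CPM to 25.3, 28.0 and 28.1 CPM, with a log2 fold change of -1.17 ± 0.05 (0.445-fold; edgeR adjusted p = 6.4e-10). No D6 library came near a D0 library in either gene. Over the same days in WT, the erythroid marker sum went from 6405 to 7134 CPM at D0 to 36606 to 41891 CPM at D6, that of mast cells and eosinophils from 467 to 508 to 29.99 to 40.8 CPM, and that of megakaryocytes from 72.3 to 75.5 to 8.32 to 10.4 CPM, and their part in the members' values was not tested. TUBGCP4 had a log2 fold change of 0.04 ± 0.04 over the same days (edgeR adjusted p = 0.40).

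The kinases fell by less. ATR went from 87.6, 86.7 and 85.6 CPM to 49.3, 57.4 and 49.96 CPM, with a log2 fold change of -0.73 ± 0.06 (edgeR adjusted p = 1.7e-07). ATM went from 258, 272 and 290 CPM to 200, 217 and 194 CPM, with a log2 fold change of -0.42 ± 0.08 (edgeR adjusted p = 0.00038). PRKDC went from 1887, 1922 and 1776 CPM to 1385, 1503 and 1410 CPM, with a log2 fold change of -0.38 ± 0.07 (edgeR adjusted p = 0.00026). All D6 libraries lay below all D0 libraries in these kinases. With the length and GC correction the log2 fold changes were -0.28 for ATM (edgeR adjusted p = 0.0035) and -0.16 for PRKDC (0.021). RNF8 went from 42.9, 41.1 and 41.2 CPM to 32.9, 33.1 and 31.8 CPM, with a log2 fold change of -0.36 ± 0.05 (edgeR adjusted p = 1.3e-05).

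MAPK8 and MDC1 rose. MAPK8 went from 21.0, 20.9 and 23.2 CPM to 25.1, 26.2 and 27.3 CPM, with a log2 fold change of 0.27 ± 0.07 (edgeR adjusted p = 0.0029). MDC1 went from 191, 197 and 188 CPM to 206, 214 and 211 CPM, with a log2 fold change of 0.13 ± 0.04 (1.10-fold; edgeR adjusted p = 0.011), or 0.21 with the correction. EYA3 stood at 97.6, 101 and 100 CPM at D0 and at 97.7, 97.4 and 103 CPM at D6, with overlapping libraries and a 95% interval of its log2 fold change from -0.09 to 0.08. All 8 calls held in each fit that left out 1 library. The libraries of D0 and D6 did not overlap for 8 of 9 members, beside 78% of all genes. By the study's rule 0 members passed in either genotype, beside 12.3% of all genes with edgeR and 12.4% with DESeq2 in WT, and 12.2% and 12.3% in KO.

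**Figure D5:**
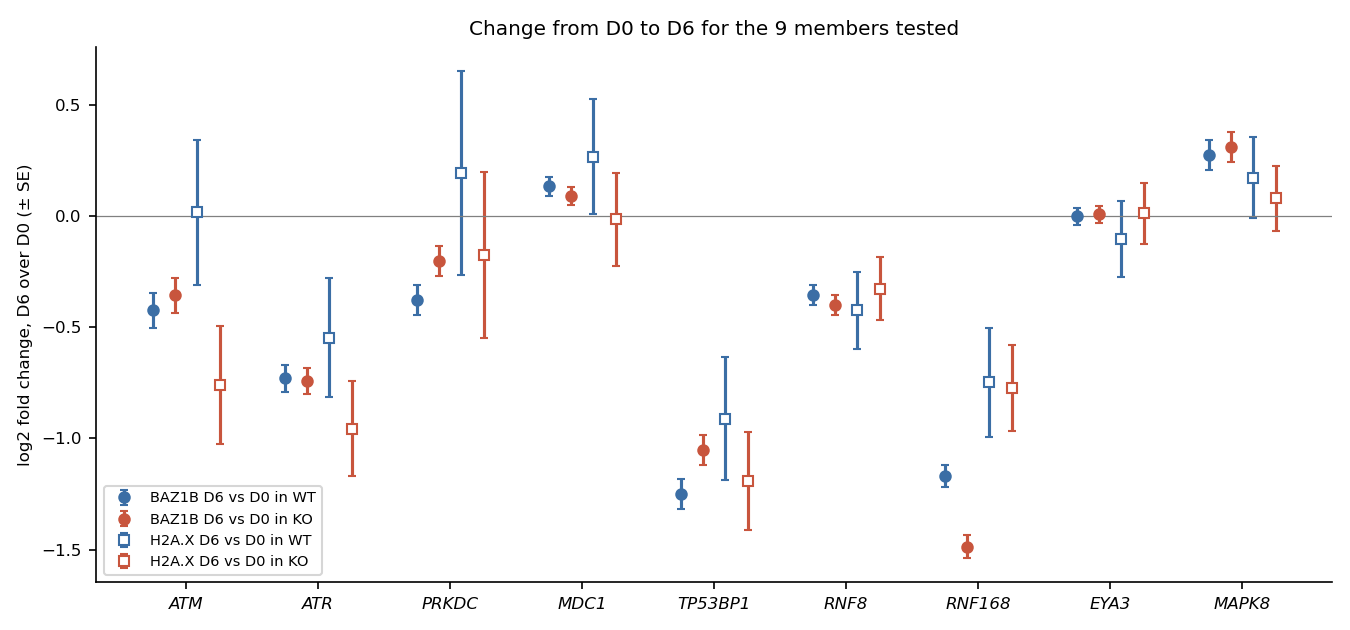
Log2 fold change of D6 over D0 (± SE) for the 9 members tested, in WT (blue) and KO (red) of the BAZ1B experiment (filled circles) and of the H2A.X experiment (open squares). TP53BP1 and RNF168 have the lowest values in the BAZ1B experiment, EYA3 stays at 0, and the bars of the H2A.X experiment are several times longer.

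In BAZ1B KO, 7 of 9 members were called from D0 to D6, 6 lower and 1 higher, beside 34.5% and 33.2% of all genes, and all 7 were called in WT as well. The days did not overlap for 6 of 9, beside 68% of all genes. RNF168 went from 59.2, 61.1 and 63.4 CPM to 21.5, 22.02 and 22.03 CPM, with a log2 fold change of -1.49 ± 0.05 (0.357-fold; edgeR adjusted p = 1.1e-10). TP53BP1 went from 94.8, 107 and 110 CPM to 52.3, 44.9 and 53.3 CPM, with a log2 fold change of -1.05 ± 0.07 (edgeR adjusted p = 1.9e-08). ATR, RNF8 and ATM fell by 0.74, 0.40 and 0.36 on the log2 scale, and MAPK8 rose by 0.31. Corrected, ATM had a log2 fold change of -0.23 (edgeR adjusted p = 0.013). PRKDC, at 1756, 1782 and 1727 CPM at D0 and 1439, 1400 and 1732 CPM at D6, fell by 0.20 on the log2 scale (edgeR adjusted p = 0.017). Its call was lost without KO D6 replicate 1 or 2 (edgeR adjusted p = 0.070 and 0.082) and with the length and GC correction, at a log2 fold change of -0.02 (0.78). MDC1 missed the threshold, with a log2 fold change of 0.09 ± 0.04 (edgeR adjusted p = 0.067), and was called with the correction, at 0.16 (0.0031).

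In the H2A.X experiment the same days were compared with fewer libraries and a wider spread, at a biological coefficient of variation of 0.239 against 0.0865. In H2A.X KO, 3 of 9 members fell and 0 rose, beside 16.1% and 14.8% of all genes. TP53BP1 went from 105, 88.1 and 87.2 CPM to 52.3, 35.5 and 34.9 CPM, with a log2 fold change of -1.19 ± 0.22 (edgeR adjusted p = 0.0032). ATR went from 86.1, 68.5 and 72.8 CPM to 48.4, 32.3 and 36.4 CPM, with a log2 fold change of -0.96 ± 0.21 (edgeR adjusted p = 0.0079). RNF168 went from 31.8, 33.0 and 26.9 CPM to 17.2, 22.5 and 13.9 CPM, with a log2 fold change of -0.77 ± 0.19 (edgeR adjusted p = 0.014), a call lost without KO D0 replicate 2 (0.056). ATM went from 345, 307 and 313 CPM to 219, 215 and 138 CPM, with a log2 fold change of -0.76 ± 0.26 that missed the threshold (edgeR adjusted p = 0.052). KO libraries of the same replicate number deviated together between the days, and with the replicate as a block ATM was called, at a log2 fold change of -0.79 (edgeR adjusted p = 0.0042). With the length and GC correction 4 of 9 members were called lower and 0 higher, beside 18.4% of all genes called lower. These were TP53BP1 at a log2 fold change of -1.09 (edgeR adjusted p = 0.00060), ATR at -0.97 (0.0020), RNF168 at -0.75 (0.014) and ATM at -0.73 (0.0072). By the study's rule 0 members passed, beside 7.28% of all genes with edgeR and 8.74% with DESeq2. In these KO libraries the mast cell and eosinophil sum went from 209 to 419 CPM at D0 to 3.08 to 13.5 CPM at D6, and the erythroid sum from 12141 to 16104 to 42491 to 70136 CPM, and their part was not tested.

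In WT of the H2A.X experiment, 0 of 9 members were called from D0 to D6 by edgeR, beside 2% of all genes. Unadjusted p was below 0.05 for 3 of them, beside 2796 of all 13236 genes, and DESeq2 called 1, TP53BP1, beside 8.57%. TP53BP1 went from 46.7 and 31.4 CPM to 24.4 and 16.9 CPM, with a log2 fold change of -0.91 ± 0.28 (edgeR adjusted p = 0.11). RNF168 went from 18.3 and 23.4 CPM to 12.4 CPM in both libraries, with a log2 fold change of -0.75 ± 0.24 (edgeR adjusted p = 0.13). ATM, at 78.3 and 40.2 CPM and then 72.3 and 47.4 CPM, overlapped between the days. With the length and GC correction 0 were called by edgeR, beside 2.79% of all genes. An unadjusted p below 0.05 was then found for 2, beside 3006 of all 13236 genes. The corrected log2 fold changes were -0.74 for TP53BP1 (edgeR adjusted p = 0.066) and -0.59 for RNF168 (0.19).

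Whether a KO changed the course from D0 to D6 was tested as the difference of the KO effects at both days. In the H2A.X experiment, 0 of 9 members were called by edgeR, beside 1.34% of all genes, and 0 by DESeq2, beside 5.14%. An unadjusted p below 0.05 was found for 0 members, beside 2016 of all 13236 genes. The value farthest from 0 was that of ATM, -0.77 ± 0.42 on the log2 scale (edgeR adjusted p = 0.43). Corrected for length and GC content, 0 were called, beside 1.79% of all genes, with ATM at -0.90 (edgeR adjusted p = 0.12). With the correction and the replicate as a block ATM was called, at -0.91 (edgeR adjusted p = 0.019), beside 4.43% of all genes. In the BAZ1B experiment, 1 of 9 was called, beside 2.47% of all genes, and 1 by DESeq2, beside 5.95%. By the study's rule 0 passed, beside 0.36% of all genes with edgeR and 0.432% with DESeq2. RNF168 fell further in BAZ1B KO than in WT, with a difference of -0.32 ± 0.07 on the log2 scale (edgeR adjusted p = 0.037). The call was lost in 9 of 12 fits that left out 1 library. Its levels at D0 were 59.2 to 62.9 CPM in WT and 59.2 to 63.4 CPM in KO, and at D6 25.3 to 28.1 against 21.5 to 22.03 CPM. For TP53BP1 the difference was 0.20 ± 0.09 on the log2 scale (edgeR adjusted p = 0.32).

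The promoter of RNF168 is shown because this gene fell most from D0 to D6 in BAZ1B KO and is the member with a KO effect that differed between the days. The 250 bases before its start are those of RefSeq (GRCh38.p14) on the minus strand, at chr3:196503769-196504018, written 5′ to 3′, with each match to the GC box GGCGGG on either strand in capitals.
RNF168 promoter: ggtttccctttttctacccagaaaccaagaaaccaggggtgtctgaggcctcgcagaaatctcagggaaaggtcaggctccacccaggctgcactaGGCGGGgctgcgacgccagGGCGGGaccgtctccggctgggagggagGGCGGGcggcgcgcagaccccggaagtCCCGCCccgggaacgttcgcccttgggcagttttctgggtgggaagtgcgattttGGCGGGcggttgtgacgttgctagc
It holds 5 GC boxes and no match to CCAAT or to the GATA motifs AGATAA and TGATAA, which share their last 5 letters. Of 35116 promoters of this length, 42.5% held GGCGGG, 32% CCAAT, 9.17% AGATAA and 6.66% TGATAA on either strand. Among the 9 members with an entry, 8 held GGCGGG, 5 CCAAT, 1 TGATAA and 0 AGATAA. TP53BP1, which fell alongside RNF168, is the member with TGATAA. These matches are of letters in this window and say nothing of binding.

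A wider list of 43 genes of the same pathway held the substrate and its tyrosine kinase, break sensors, phosphatases of the serine, the ubiquitin step, the effectors, the checkpoint kinases and the relatives of EYA3, APBB1 and MAPK8. Of these, 39 passed the filter in each experiment. In H2A.X KO at D0, 11 were higher and 7 lower than in WT, which are 28.2% and 17.9% of the 39 beside 18.4% and 16.7% of all genes, with a median log2 fold change of 0.14 over the list and 0.01 over all genes. HERC2, a ligase that works with RNF8, had a log2 fold change of 1.89 ± 0.40 (edgeR adjusted p = 0.0092), and RIF1, the effector that TP53BP1 recruits, 1.597 ± 0.28 (0.0064). BABAM1, a subunit of the BRCA1-A complex, had -1.52 ± 0.27 (edgeR adjusted p = 0.0063), and H2AFX itself -1.50 ± 0.46 (0.030). With the length and GC correction 3 were higher and 3 lower, or 7.69% each beside 12.2% and 11.5% of all genes, and H2AFX had -0.79 (edgeR adjusted p = 0.17).

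At D6, 17 of the 39 were higher and 6 lower in H2A.X KO, which are 43.6% and 15.4% beside 22.2% and 20.9% of all genes. With the correction 6 were higher and 2 lower, which are 15.4% and 5.13% beside 12.2% and 13.8% of all genes. RIF1 had a log2 fold change of 1.72 ± 0.29 (edgeR adjusted p = 0.0038), HERC2 1.72 ± 0.40 (0.0080) and BARD1, the partner of BRCA1, 1.597 ± 0.30 (0.0045). RAD50, of the complex that senses breaks, had 2.10 ± 0.54 (edgeR adjusted p = 0.012) at mean normalized counts of only 18.01 in WT and 79.0 in KO. Corrected, RIF1 had 0.61 (edgeR adjusted p = 0.014), HERC2 0.90 (0.027), BARD1 0.98 (0.017) and RAD50 1.23 (0.064).

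Between BAZ1B KO and WT, 1 gene of the list was higher and 1 lower at D0, beside 1.25% and 2.64% of all genes, and 2 were higher and 3 lower at D6, beside 6.87% and 5.97%. At D0 these were MCPH1, a reader of the serine mark, at a log2 fold change of 0.24 ± 0.05 (edgeR adjusted p = 0.011), and BAZ1B itself at -0.40 ± 0.07 (0.0042). At D6 the largest were SHLD1, of the shieldin complex that acts downstream of TP53BP1, at -0.44 ± 0.12 (edgeR adjusted p = 0.025), and BAZ1B at -0.38 ± 0.07 (0.0025). BABAM1 had -0.25 ± 0.07 (edgeR adjusted p = 0.044), and PPP4C, a phosphatase of the serine mark, 0.20 ± 0.05 (0.019).

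From D0 to D6, 12 of the 39 rose and 10 fell in WT of the BAZ1B experiment, or 30.8% and 25.6% beside 33.5% and 35.4% of all genes. In KO 15 rose and 11 fell, or 38.5% and 28.2% beside 33.2% and 34.5% of all genes. SHLD2 of the shieldin complex fell in both, by 0.92 on the log2 scale in WT (SE 0.07, edgeR adjusted p = 5.1e-08) and by 0.77 in KO (SE 0.07, 3.1e-07). In WT, SHLD1 rose by 0.70, BABAM1 by 0.70 and ABRAXAS1, another subunit of the BRCA1-A complex, by 0.68 on the log2 scale (edgeR adjusted p = 0.00012, 2.1e-06 and 0.00019). In KO, ABRAXAS1 rose by 0.75, BARD1 by 0.59 and PPP2CB, a catalytic subunit of the phosphatase PP2A, by 0.58 (edgeR adjusted p = 8.6e-05, 3.1e-06 and 1.0e-07). In H2A.X KO 4 rose and 2 fell, beside 14.8% and 16.1% of all genes, or 7 and 3 with the replicate as a block, beside 18.2% and 20.3%. They were led by SHLD2, which fell by 1.13 on the log2 scale (edgeR adjusted p = 0.0018), SHLD1 at 0.82 (0.031), BABAM1 at 0.82 (0.030) and PPP2CB at 0.63 (0.015). In H2A.X WT 0 of 39 were called by edgeR, beside 2% of all genes, and 0 by DESeq2, beside 8.57%. An unadjusted p below 0.05 was found for 3, beside 2796 of all 13236 genes. In the difference of the KO effects edgeR called 0 of 39 in either experiment, beside 1.34% of all genes for H2A.X and 2.47% for BAZ1B. For H2A.X, 0 had an unadjusted p below 0.05, beside 2016 of 13236 genes, and DESeq2 called 0, beside 5.14%. For BAZ1B, 4 had one, beside 2284 of 13879 genes, and DESeq2 called 1, beside 5.95%.

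The genes most like ATM and ATR over the 22 libraries were named by the Pearson correlation of log2 CPM, centred on the mean of each experiment, among 9866 genes. For ATM they were PEAK1 (r = 0.988), CLASP2 (0.983) and PRRC2A (0.981). For ATR they were EIF4G3 (r = 0.987), ANKS1A (0.983) and AHCYL2 (0.982). All 6 have a longest transcript over 5000 bp, from 5049 to 19217 bp. Of the tested genes with a known length, 3693 of 12012 in the H2A.X and 3785 of 12403 in the BAZ1B experiment have one. The libraries share genotype, day and the read distribution of the H2A.X WT libraries, so the correlations describe the 22 libraries and carry no test.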

How the data were processed

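The authors deposited raw counts of reads per gene, 1 column per library and no normalization. Per the labels and the methods, reads were trimmed, aligned to hg38 with STAR 2.7.0f and assigned to genes with featureCounts of Subread 1.6.4. The kit in the methods keeps the strand of the RNA, and that in the labels does not. Members, gene lists and tests were chosen with earlier results of these data known.

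The tests used edgeR 4.0.16 in R 4.3.3: filterByExpr (minimum count 10, minimum total 15), TMM normalization and a quasi-likelihood F test, two-sided, with 1 coefficient per genotype and day, on all libraries of 1 experiment. P-values were adjusted by Benjamini-Hochberg over all 13236 or 13879 genes tested, and a gene was called at an adjusted p below 0.05. SEs come from the F statistic, intervals from its t distribution, and errors of levels are SDs over subclones, which also carry clonal differences. Replicates are subclones of 1 line, so p-values cover the spread between them, and counts without molecular identifiers give counting error only.

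Transcript lengths, merged exons and GC content come from GENCODE 44, in which 36434 names matched directly and 743 by an older name. The length and GC correction subtracts, in each library, splines with 4 degrees of freedom in log length and GC content, for the 12012 and 12403 tested genes with both values. The alternatives were DESeq2 1.42.0, upper-quartile normalization, globin genes left out, no filter, the compared groups alone, the replicate number (or the subclone, between days) as a block, the correction with and without the block, the study's rule and one with an adjusted p in its place, and each library left out. Same-numbered KO libraries of D0 and D6 correlated over genes at r = 0.306 to 0.606 in the H2A.X and 0.161 to 0.659 in the BAZ1B experiment. They were taken as pairs in the fits with a block only. The tests reported first treat all libraries as independent, so their p-values leave this pairing out. All members were named, and of the pathway list, in each comparison, the 4 called genes with the largest change. The 3 genes most like ATM and ATR in level were named as well, and those for PRKDC are not reported here. Procedures were tested on simulated data. No column was left out.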

Additional observations from a re-analysis of the deposited data

Results flagged for a closer look

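RNF168 was the member whose BAZ1B KO effect differed between the days. The difference of its log2 fold changes at D6 and D0 was -0.318 (SE 0.07, edgeR adjusted p = 0.037), with KO and WT overlapping at D0 and every KO library below every WT library at D6. DESeq2 gave an adjusted p of 0.0061 and the length and GC correction with edgeR 0.025. The call was lost in 9 of the 12 fits that left out 1 library, at edgeR adjusted p values of 0.053 to 0.11, which leave the sign unchanged. The tested groups held 2 or 3 libraries, so single libraries far from their group were not looked for.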

How the results depend on the processing

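Direction and call of the named members were compared between the fit reported above and each alternative. The length and GC correction called 4 members instead of 7 between H2A.X KO and WT at D0, beside 3140 instead of 4651 of all 13236 genes. At D6 it called 2 members instead of 6, beside 3440 instead of 5701 of all genes. The block and the correction together called 3 members there, beside 4515 of all genes. At D6 the correction turned ATR to -0.087 and MAPK8 to -0.29 on the log2 scale, and with the block to -0.12 and -0.30. From D0 to D6 in H2A.X WT, DESeq2, no filter, the block, and the block with the correction each called 1 member where edgeR called 0. Over all genes they called 1067 of 12456, 1271 of 25504, 1127 of 13236 and 966 of 13236, where edgeR called 265 of 13236. The block with the correction also called 1 member, ATM, in the difference of the H2A.X KO effects, beside 586 of 13236 genes. Where the fold change had to exceed 1.5 on the log2 scale at an adjusted p under 0.001, edgeR called 0 members in each comparison, and 0% to 11.7% of all genes. The study's rule, whose p is read as unadjusted and which was added after seeing the data, called 2 members with edgeR and 2 with DESeq2 between H2A.X KO and WT at D0, 1 and 2 at D6, and 0 in each other comparison. Of 56 member results with a direction, DESeq2 moved 3 across the threshold, upper-quartile normalization 3, leaving out the globin genes 0, no filter 5 and the compared groups alone 4, and each kept its direction. The last could not be run for the difference of the KO effects, which needs all groups. The causes were not tested.

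Same-numbered KO and WT libraries of 1 day correlated at r = 0.067 to 0.21 in the H2A.X experiment, with 2 pairs a day, and at -0.046 to 0.19 in the BAZ1B experiment. No source says that they share an origin, so they share only a number. With the replicate block the H2A.X comparisons called 8 members at D0 and 7 at D6, beside 5490 and 6460 of all 13236 genes. From D0 to D6 they called 4 in KO and 1 in WT, beside 5095 and 1127 of all genes. The BAZ1B comparisons called 0 at D0, 2 at D6, 8 across days in WT, 7 in KO and 1 in the difference, as without the block. Over all 13879 genes they called 585, 1802, 10017, 9784 and 718.

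Between H2A.X KO and WT, most member calls were lost without replicate 2 of WT at that day, which leaves 1 WT library. Calls over all genes fell there as well. Leaving out 1 library moved the members called from 2 to 4 across days in H2A.X KO. For BAZ1B they moved from 1 to 3 at D6, from 6 to 8 across days in KO and from 0 to 1 in the difference of the KO effects. MDC1 ranged from -0.063 to 0.67 on the log2 scale from D0 to D6 in H2A.X WT, with the lowest value without WT D0 replicate 2. PRKDC ranged from -0.016 to 0.14 between BAZ1B KO and WT at D6, with the lowest value without KO D6 replicate 3. Of 34 member calls, 18 held in all of these fits. The H2A.X experiment is limited by its 2 WT libraries a day and its lower depth.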
